A study of Rattus norvegicus with 48 samples.

Results

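The miR-17-92 cluster was followed in rat blood plasma through 8 weeks of bone healing. Of the 645 mature miRNAs with deposited counts, 8 were taken as members of the cluster by name: rno-miR-17-5p, rno-miR-18a-5p, rno-miR-19a-3p, rno-miR-19a-5p, rno-miR-19b-3p, rno-miR-20a-5p, rno-miR-92a-3p and rno-miR-92a-1-5p, written below without rno, the prefix for rat. The rule used the names alone.

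Plasma small RNA of 12 rats was sequenced in 48 samples, 1 per rat at baseline (week 0, just before a drill hole defect was made in the calvaria, the skull roof) and 1 per rat 1, 4 and 8 weeks later. The rats, per the study's methods 12-week-old males, had been selected from a larger cohort by microcomputed tomography as the 6 strong and the 6 weak regenerators, which GEO labels good and bad. Both groups mixed empty defects with collagen hydroxyapatite scaffolds that carried a plasmid coding for BMP2 and miR-590-5p or extracellular vesicles of mesenchymal stromal cells, and plain scaffolds were among the strong regenerators alone. The treatment of each rat was not mapped here, so treatment and regeneration cannot be fully told apart. The methods name the rats Sprague-Dawley and the abstract names them Wistar. Baseline samples carry the regeneration label unknown and were grouped by their animal. Every later sample came from a rat with a defect, so time after surgery and the passing of time cannot be told apart. The total miRNA count was between 393259 and 1586398 per sample, with a median of 796311. Depth was lowest in the week 8 libraries, with a median of 609384 and a highest total of 990333. Medians of the earlier time points ranged from 812038 (week 1) to 1020770 (baseline). The week 8 samples also stand as a separate block after all other samples in the deposited order. Whether these libraries were processed as a separate batch was not tested.

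A miRNA is a short RNA cut from a hairpin precursor. It pairs through its seed, bases 2 to 8, with messenger RNAs and lowers their translation or stability. The hairpins of the miR-17-92 cluster are cut from a single primary transcript that MYC is known to activate, and the cluster is known for promoting proliferation and survival, for B cell development, and in the skeleton for growth and osteoblast formation. Its miRNAs are also abundant in blood cells, and plasma holds miRNAs released from such cells.

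In the RefSeq annotation of GRCr8, the 6 hairpins Mir17, Mir18a, Mir19a, Mir20a, Mir19b1 and Mir92a1 lie in this order within 785 bases of the plus strand at chr15:98587848-98588632. RefSeq also places the mature sequences of miR-17-5p (in Mir106a), miR-19b-3p (in Mir19b2) and miR-92a-3p (in Mir92a2) in the X-linked relative of the cluster, on the minus strand at chrX:137342777-137343647. Counts of these 3 members therefore cannot be assigned to one of the loci. The RefSeq mature sequences of all 8 members follow, 5′ to 3′ with the seed in capitals, because the seeds and the near-identical pairs decide which counts may be read separately.
miR-17-5p: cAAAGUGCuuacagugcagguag
miR-20a-5p: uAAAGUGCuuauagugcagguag
miR-18a-5p: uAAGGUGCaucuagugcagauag
miR-19a-3p: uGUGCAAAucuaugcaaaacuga
miR-19b-3p: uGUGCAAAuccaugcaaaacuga
miR-92a-3p: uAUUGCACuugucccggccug
miR-19a-5p: uCGUUUUGcauaguugcacu
miR-92a-1-5p: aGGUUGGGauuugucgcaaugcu

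Counted from 1 at the 5′ end, miR-19a-3p and miR-19b-3p differed by the single base U11C, and miR-17-5p and miR-20a-5p by C1U and C12U. The authors allowed 1 mismatch to a mature miRNA, so reads of miR-19a-3p and miR-19b-3p could be counted for each other, and the division between them is uncertain. miR-17-5p and miR-20a-5p share the seed AAAGUGC, miR-19a-3p and miR-19b-3p share GUGCAAA, and miR-92a-3p carries AUUGCAC. miR-18a-5p has AAGGUGC. The remaining arms, miR-19a-5p (CGUUUUG) and miR-92a-1-5p (GGUUGGG), come from the same hairpins as miR-19a-3p and miR-92a-3p.

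The members can all be cut from a shared transcript, and some of them also come from the X-linked relative. They differed in plasma by more than 3 orders of magnitude when the sparse miR-92a-1-5p is included. Levels are given as RPM, reads per 1000000 miRNA reads of the library, a unit that needs no length because a read covers a mature miRNA. Over the 48 samples miR-92a-3p averaged 41799 RPM ± 5788 (SD, n = 48) and ranked 6 among the 645 miRNAs, and miR-19b-3p averaged 38167 RPM ± 9772 at rank 9. miR-19a-3p followed with 6513 RPM ± 984 at rank 33. miR-17-5p averaged 902 RPM ± 193 and miR-20a-5p 779 RPM ± 221, at ranks 80 and 84. miR-18a-5p averaged 102 RPM ± 26.1, miR-19a-5p 56.5 RPM ± 16.9, and miR-92a-1-5p 11.3 RPM ± 9.67 with counts between 0 and 29 and 2 samples at 0. An even ligation of all sequences was not tested, so the order of levels between miRNAs holds for the counts.

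Neighbours in this order were not all separated. miR-92a-3p exceeded miR-19b-3p in 33 of the 36 samples of the first 3 time points and in 0 of the 12 at week 8. miR-17-5p exceeded miR-20a-5p in 40 of 48 samples, 12 of them at week 8. miR-18a-5p exceeded miR-19a-5p in 43 of 48. The steps from miR-19b-3p to miR-19a-3p, from miR-19a-3p to miR-17-5p and from miR-20a-5p to miR-18a-5p held in 48 of 48 samples.

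Changes after surgery were tested against baseline with the quasi-likelihood test of edgeR, fitted on all miRNAs over the 48 samples with Benjamini-Hochberg adjustment (FDR), and a miRNA was called at an FDR under 0.05. At week 8, 4 members were called higher (miR-19b-3p, miR-92a-3p, miR-19a-3p and miR-92a-1-5p) and 1 was called lower (miR-20a-5p), whereas 3 were not called. Of all 595 miRNAs tested at this week 42.9% were called, 14.8% higher and 28.1% lower. The median log2 fold change was 0.33 over the 8 members and -0.28 over all miRNAs tested. The member reads together made up 7.56% ± 0.550 (SD, n = 12) of all miRNA reads at baseline, 8.65% ± 0.820 after 1 week, 8.29% ± 0.802 after 4 weeks and 10.8% ± 0.852 after 8 weeks.

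**Figure D1:**
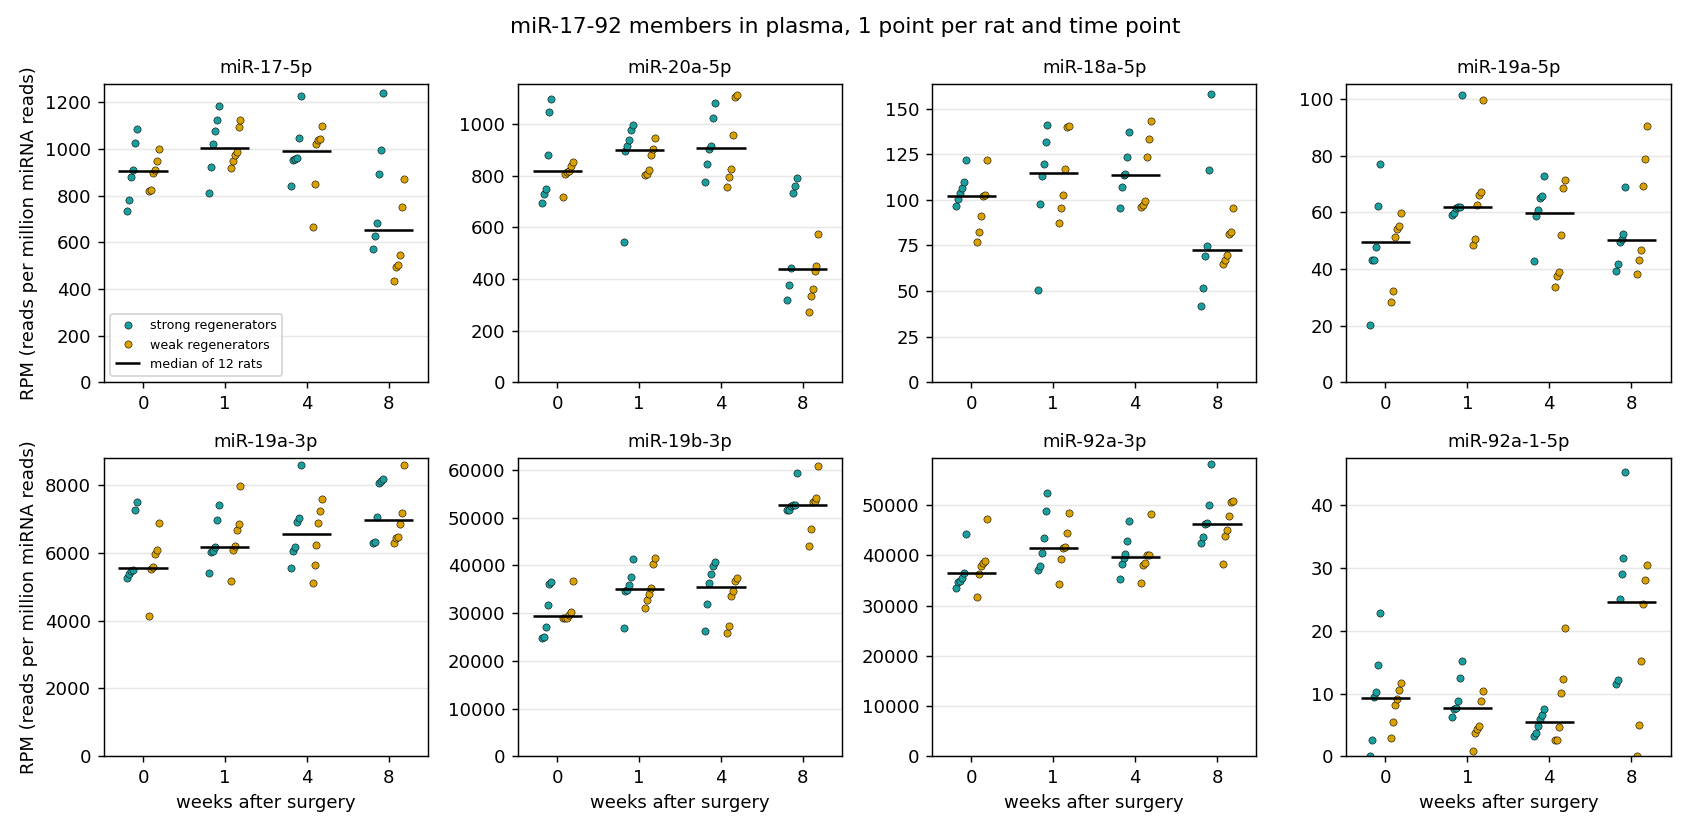
Level of each member in RPM (vertical axes, starting at 0) at weeks 0, 1, 4 and 8 (horizontal axes), with 1 point per rat, strong regenerators in turquoise and weak regenerators in yellow, and the median of the 12 rats as a bar. At week 8 all 12 rats lie above the baseline range for miR-19b-3p, and 9 of 12 lie below it for miR-20a-5p.

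miR-19b-3p and miR-19a-3p, which share a seed, were both higher at week 8. The division of reads between them is uncertain, so these are not fully separate results. The lowest, median and highest level of miR-19b-3p over the 12 rats was 24751, 29353 and 36619 RPM at baseline. After 1 week it was 26762, 35029 and 41609.6 RPM, after 4 weeks 25785, 35479 and 40766 RPM, and after 8 weeks 43956, 52644 and 60749 RPM. Every rat was higher at week 8 than at its own baseline, and the lowest value at week 8 lay above the highest at baseline. The log2 fold change at week 8 was 0.87 (SE 0.11, FDR 2.87e-09). miR-19a-3p had 4150.3, 5556 and 7501 RPM at baseline and 6301, 6962 and 8589 RPM at week 8. It was higher in 10 of 12 rats with overlapping ranges, and its log2 fold change was 0.36 (SE 0.13, FDR 0.0188). Without rat 2 this call was lost (FDR 0.0593).

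miR-92a-3p, the most abundant member over all samples and known for restraining blood vessel growth, had 31689.8, 36428 and 47181 RPM at baseline and 38382, 46359 and 58156 RPM at week 8. It was higher in 10 of 12 rats, 5 of them above the whole baseline range. The log2 fold change was 0.39 (SE 0.10, FDR 0.00158). The other arm of its hairpin, miR-92a-1-5p, had 0, 9.27 and 22.8 RPM at baseline and 0, 24.7 and 45.3 RPM at week 8. It was higher in 10 of 12 rats and 7 exceeded the baseline range, with a log2 fold change of 1.35 (SE 0.38, FDR 0.00336). Its counts at week 8 were no higher than 29, so counting error is large.

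miR-20a-5p moved the other way. Its levels were 695, 816 and 1095 RPM at baseline and 544, 898 and 996 RPM after 1 week. After 4 weeks they were 757, 908 and 1114 RPM, and after 8 weeks 272, 436 and 791 RPM. At week 8 it was lower in 11 of 12 rats and 9 lay below the whole baseline range. The log2 fold change was -0.72 (SE 0.15, FDR 7.6e-05). miR-17-5p, with the same seed, had 734, 903 and 1087 RPM at baseline and 435, 653 and 1239 RPM at week 8. It was lower in 9 of 12 rats, 7 of them below the baseline range, whereas rat 2 lay above it. Its log2 fold change of -0.27 (SE 0.14, FDR 0.126) was not called, and with the rat as a block it was -0.30 and called at an FDR of 0.0493. The value of -0.27 lies close to the median of -0.28 over all miRNAs tested at week 8. miR-17-5p and miR-20a-5p are known regulators of cell cycle genes such as those of the E2F family.

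miR-18a-5p had 77.1, 102 and 122 RPM at baseline and 41.7, 72.3 and 158 RPM at week 8. It was lower in 9 of 12 rats, and the highest value was again in rat 2. Its log2 fold change of -0.21 (SE 0.18, FDR 0.364) was not called. That value lies 0.07 above the median over all miRNAs tested at week 8. miR-19a-5p had 20.1, 49.6 and 77.2 RPM at baseline and 38.1, 50.1 and 90.7 RPM at week 8, with 6 rats higher and 6 lower. Its log2 fold change of 0.31 (SE 0.19, FDR 0.189) was not called either.

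**Figure D2:**
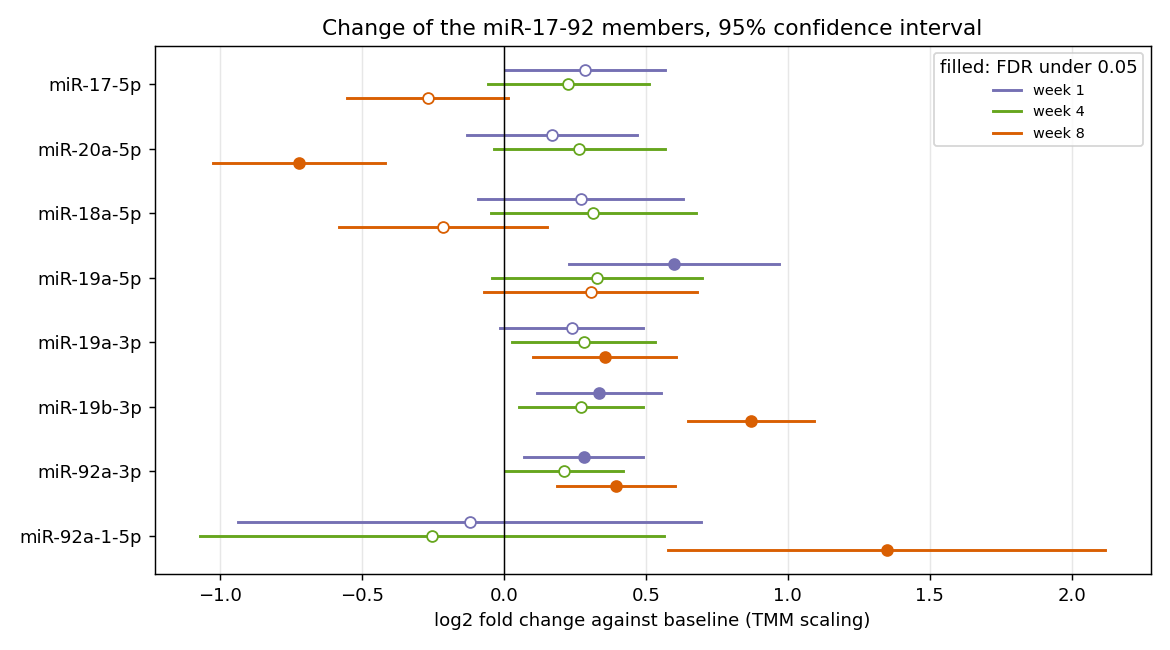
Log2 fold change of each member against baseline (horizontal axis, TMM scaling) at weeks 1, 4 and 8, with the 95% confidence interval as a line and a filled point where the FDR is under 0.05. At week 8 miR-19b-3p stands at 0.87 and miR-20a-5p at -0.72, with intervals on opposite sides of 0.

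At week 1, 7 of the 8 members passed the filter on mean abundance, and 3 of these were called, all higher: miR-19a-5p, miR-19b-3p and miR-92a-3p. Of all 257 miRNAs tested at this week 20.2% were called, 12.5% higher. The median log2 fold change was 0.28 over the 7 members and 0.00 over all miRNAs tested (-0.0042). miR-19a-5p rose from a median of 49.6 to 61.9 RPM and was higher in 10 of 12 rats (log2 fold change 0.60, SE 0.18, FDR 0.0217). miR-19b-3p was higher in 11 of 12 rats (0.34, SE 0.11, FDR 0.0289) and miR-92a-3p likewise in 11 of 12 (0.28, SE 0.10, FDR 0.0483). Baseline and week 1 overlapped for all 3. These calls rested on settings and on single rats: none was called with scaling by library size or with no filter on abundance, none without rat 7, 17 or 29, and 1 without rat 3, 5, 16 or 25.

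At week 4, 0 of the 8 members were called by edgeR, and 0 by DESeq2 or limma-voom. 3 had an unadjusted edgeR p under 0.05, as had 115 of all 645 miRNAs tested. The smallest FDR among the members was 0.165, for miR-19b-3p. Log2 fold changes were between -0.25 (miR-92a-1-5p) and 0.33 (miR-19a-5p), with a median of 0.27 against 0.01 over all 645 miRNAs tested (0.0067), of which 4.19% were called. miR-20a-5p, lower at week 8, was at 0.27 at week 4.

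Counts of miRNAs are shares of a library. Reads of UniSp2, a synthetic RNA spiked in at extraction, were between 91.1 and 144 per 1000 miRNA reads at week 8 and between 23.3 and 60.4 at the other 3 time points, without overlap. With UniSp2 as the library size, 7 of the 8 members were called lower at week 8 and 0 higher, while of all 645 miRNAs 497 were called, 1 of them higher. The study's methods give a standardized plasma volume and a set volume of spike-in mix for extraction, and name no exception for week 8. The labels give another plasma volume. Whether the input or the amount of UniSp2 in fact differed at week 8 was not tested. On the UniSp2 scale the median log2 fold change over all miRNAs was -1.82. Relative to that median, miR-19b-3p stood at 0.76, miR-92a-1-5p at 1.31, miR-92a-3p at 0.30 and miR-19a-3p at 0.26, and miR-20a-5p at -0.79. Of the members not called on the main scale, miR-19a-5p stood at 0.19, miR-17-5p at -0.34 and miR-18a-5p at -0.30. The directions given above are therefore relative to the other miRNAs of a library. In plasma, fewer cells that release a miRNA and less of it per cell cannot be told apart.

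Blood cell markers were followed over the same weeks. The 5 red blood cell miRNAs listed (miR-451-5p, miR-144-3p, miR-144-5p, miR-486 and miR-16-5p) summed to a median of 26.1% of miRNA reads at baseline (20.0 to 30.3). The sum had a median of 30.8% after 1 week (21.6 to 39.6), 28.8% after 4 weeks (23.3 to 39.0) and 32.3% after 8 weeks (27.1 to 38.0). 4 of them were called higher at week 1, 0 of them at week 4, and at week 8 2 were called higher and 1 lower. Of all miRNAs tested, 12.5% were called higher at week 1 and 4.19% were called at week 4. At week 8 the shares were 14.8% higher and 28.1% lower. The ratio of miR-451-5p to miR-23a-3p, used as a measure of haemolysis, is given here as a linear ratio of read counts, not as log2. It had a median of 4.93 at baseline, then 6.70, 5.88 and 8.15 after 1, 4 and 8 weeks. The 5 white blood cell miRNAs listed (miR-142-3p, miR-142-5p, miR-150-5p, miR-146a-5p and miR-155-5p) had a median sum of 3.27% (1.57 to 5.95) at baseline and 1.25% (0.916 to 2.09) at week 8, with 2 called higher and 3 lower. The 5 platelet miRNAs (miR-223-3p, miR-126a-3p, miR-126a-5p, miR-191a-5p and miR-24-3p) summed to 9.23% (7.97 to 10.1) at baseline and 8.63% (6.30 to 10.2) at week 8, with 1 called lower. At week 8 the red and the white blood cell list each held markers called in both directions, so a sum does not describe each marker. All 15 markers were detected in every sample. The part of these cells in the changes of the members was not tested.

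A ratio between miRNAs of one library does not depend on the scaling. 10 such ratios were compared with baseline within rats at the 3 weeks by an exact two-sided sign-flip permutation test with 0.5 added to each count, and p-values were adjusted over the 30 tests. In 5 of the 10, miR-92a-3p is the numerator, so these 5 are not independent of each other. Ratios between other miRNAs were not tested, and edgeR called 42.9% of all 595 miRNAs tested at week 8. At week 8, 6 of the 10 ratios had an adjusted p under 0.05. At weeks 1 and 4 the number was 0 of 20 with a smallest adjusted p of 0.159, and 1 of these 20, miR-19a-5p to miR-19a-3p at week 1, had an unadjusted p under 0.05 (exact p = 0.0425).

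The ratio of miR-92a-3p to miR-20a-5p had a lowest, median and highest value of 30.6, 46.1 and 60.8 at baseline and 53.7, 108 and 185 at week 8. It rose 2.27-fold in the geometric mean and in 11 of 12 rats (exact permutation p = 0.000977, adjusted 0.00977). The ratio of miR-92a-3p to miR-17-5p rose 1.64-fold in 10 of 12 rats (adjusted exact p = 0.0234), and that to miR-18a-5p rose 1.64-fold in 11 of 12 (adjusted exact p = 0.0183). Against miR-19b-3p, miR-92a-3p fell in 11 of 12 rats, from a median ratio of 1.28 (0.918 to 1.79) to 0.898 (0.743 to 0.981), a geometric mean of 0.719-fold (adjusted exact p = 0.00977). Its ratio to miR-19a-3p was higher in 6 rats and lower in 6, at 1.02-fold (adjusted exact p = 0.931). The members were thus in different proportions at week 8: miR-19b-3p made up 40.1% ± 4.01 of the member reads at baseline and 48.7% ± 1.45 at week 8, miR-92a-3p 49.6% ± 4.88 and 43.3% ± 2.21, and miR-20a-5p 1.11% ± 0.147 and 0.456% ± 0.183 (SD, n = 12).

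**Figure D3:**
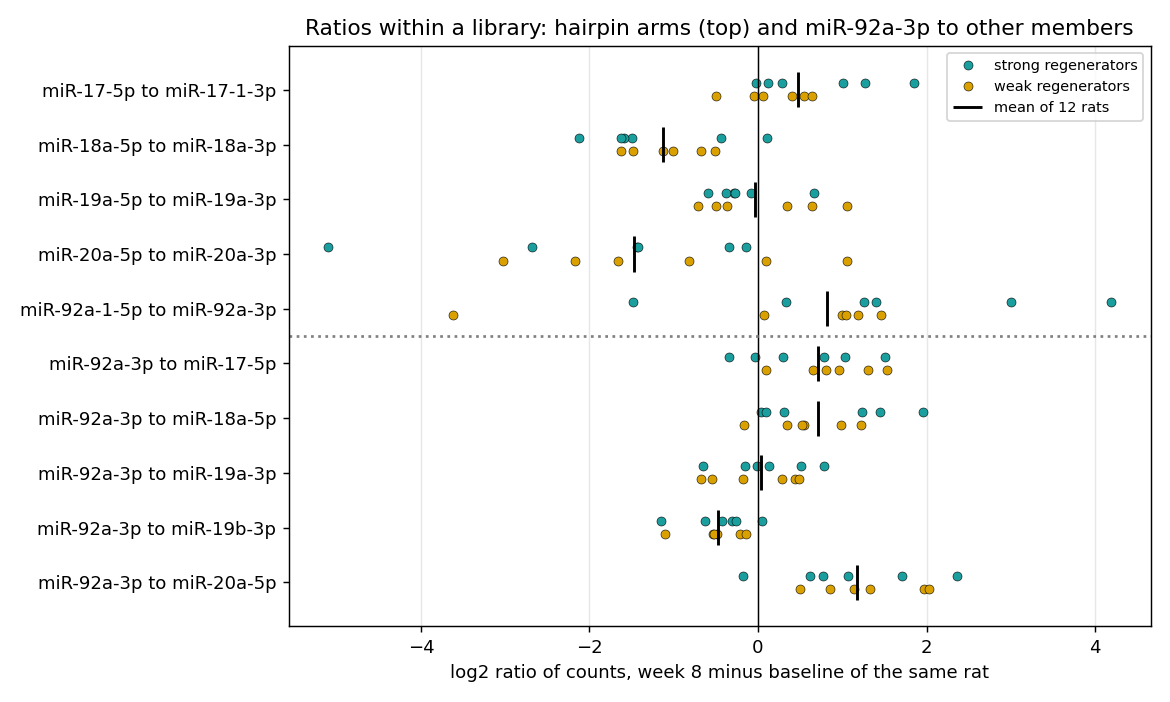
Change of 10 log2 count ratios from baseline to week 8 in the same rat (horizontal axis), with 1 point per rat (turquoise, strong; yellow, weak) and the mean of the 12 rats as a bar. The ratio of miR-92a-3p to miR-20a-5p lies above 0 in 11 of 12 rats, and that of miR-18a-5p to miR-18a-3p below 0 in 11 of 12.

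Of the 5 ratios between arms of a hairpin, 2 had an adjusted exact p under 0.05 at week 8, those of miR-18a and miR-20a. From each hairpin a 5p and a 3p strand are released, and usually 1 of the strands is retained. The arms that the ratios turn on are shown here with their seeds in capitals, as RefSeq gives them.
miR-18a-3p: aCUGCCCUaagugcuccuucu
miR-17-1-3p: aCUGCAGUgaaggcacuugugg
miR-20a-3p: aCUGCAUUacgagcacuuaca

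miR-18a-3p had 43.2, 68.7 and 97.9 RPM at baseline and 102, 113 and 161 RPM at week 8. All 12 rats were higher, with no overlap between the time points, and the log2 fold change was 0.79 (SE 0.14, FDR 5.13e-06). The ratio of miR-18a-5p to miR-18a-3p went from a median of 1.42 (1.02 to 2.21) to 0.649 (0.338 to 1.38). It fell in 11 of 12 rats, to 0.456-fold in the geometric mean (adjusted exact p = 0.00977). The ratio of miR-20a-5p to miR-20a-3p fell in 10 of 12 rats, to 0.360-fold (adjusted exact p = 0.0342). Counts of miR-20a-3p were between 0 and 14 at week 8, and without rat 2, 5, 6, 7, 17, 26 or 29 the adjusted exact p was between 0.0513 and 0.0684.

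miR-17-1-3p, the other arm of the miR-17 hairpin, was called lower. It had 54.3, 102 and 193 RPM at baseline and 38.3, 50.6 and 85.7 RPM at week 8, was lower in 12 of 12 rats and had a log2 fold change of -0.84 (SE 0.23, FDR 0.00221). The ratio of miR-17-5p to miR-17-1-3p was 1.38-fold higher in the geometric mean (9 of 12 rats, adjusted exact p = 0.100). For miR-19a the arm ratio was 0.973-fold (adjusted exact p = 0.931) and for miR-92a-1-5p to miR-92a-3p 1.77-fold (adjusted exact p = 0.524). miR-17-5p and miR-92a-3p are also placed in the X-linked relative, so their arm ratios may mix hairpins. Of the 7 partner arms in the table, 6 were tested at week 8, with 1 called higher (miR-18a-3p) and 2 lower (miR-17-1-3p and miR-17-2-3p, at -0.72). Of all 595 miRNAs tested at this week 14.8% were called higher and 28.1% lower, so these counts lie near the shares over all miRNAs. At week 1, edgeR called 0 of the 2 partner arms tested. 1 of these 2 had an unadjusted p under 0.05 (miR-18a-3p, log2 fold change 0.32, FDR 0.104), as had 86 of all 257 miRNAs tested. At week 4 edgeR called 0 of the 7 partner arms, none with such a p.

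miRNAs with a shared seed were called in both directions at week 8 for 1 of the seeds. Over all 595 miRNAs tested at this week, 14.8% were called higher and 28.1% lower. The seed AAAGUGC is shared by 5 miRNAs of the table: miR-17-5p, miR-20a-5p, miR-20b-5p, miR-93-5p and miR-106b-5p. 1 of these was called higher, miR-93-5p (0.66, SE 0.12, FDR 1.24e-05), and 2 lower, miR-20a-5p and miR-106b-5p (-1.01, SE 0.16, FDR 3.13e-07). miR-20b-5p was at 0.08 (FDR 0.802). miR-93-5p and miR-106b-5p come from the related miR-106b/93/25 cluster and are shown here with miR-17-5p for the bases that follow the seed.
miR-17-5p: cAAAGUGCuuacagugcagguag
miR-93-5p: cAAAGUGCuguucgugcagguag
miR-106b-5p: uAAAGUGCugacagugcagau

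The seed AUUGCAC is shared by miR-92a-3p, miR-25-3p, miR-363-3p, miR-92b-3p and miR-32-5p. 3 of these 5 were called higher at week 8: miR-92a-3p, miR-25-3p (0.48, SE 0.12, FDR 0.000518) and miR-363-3p (1.01, SE 0.18, FDR 6.36e-06). miR-92b-3p (-0.40, FDR 0.0506) and miR-32-5p (-0.47, FDR 0.0718) had negative values that were not called. Against miR-92a-3p, miR-92b-3p differs by U10C and G21C. Of the GUGCAAA seed, both miRNAs in the table were called higher, and these are the members miR-19a-3p and miR-19b-3p. Their reads could be counted for each other, so the 2 calls are not fully separate.

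Over the 12 paralogues listed, the mature miRNAs of the miR-106b/93/25 cluster, of miR-20b and miR-363 from the X-linked cluster and of miR-92b, 3 were called higher and 4 lower at week 8. The lower ones were miR-106b-5p, miR-93-3p (-0.61, FDR 0.0068) and the sparse miR-363-5p and miR-92b-5p, with means of 1.00 and 1.93 RPM. Of all 595 miRNAs tested at week 8, 42.9% were called, 14.8% higher and 28.1% lower. The median log2 fold change of the 12 paralogues was 0.09. At week 1, 2 of the 9 paralogues tested were called, both higher, miR-93-5p (0.45, FDR 0.00865) and miR-25-3p (0.36, FDR 0.0289). Of all 257 miRNAs tested at week 1, 20.2% were called, 12.5% higher. At week 4 none of the 12 was called by edgeR, although 3 were under 0.05 before adjustment, as were 115 of all 645 miRNAs tested.

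The study chose its rats to set strong against weak regeneration. Over all time points, 0 of the 8 members were called between the groups by edgeR, by DESeq2 or by limma-voom, and 0 had an unadjusted p under 0.05 in edgeR. This fit treats the 4 samples of a rat as independent. Of all 645 miRNAs 0% were called, with 64 at an unadjusted p under 0.05. Log2 differences of strong over weak regenerators were between -0.04 (miR-92a-3p) and 0.27 (miR-92a-1-5p), and the smallest FDR was 0.758. The 95% confidence interval of the fold difference was 0.878 to 1.08 for miR-92a-3p, 0.879 to 1.09 for miR-19b-3p, 0.938 to 1.24 for miR-17-5p and 0.935 to 1.26 for miR-20a-5p. For miR-92a-1-5p the interval was 0.811 to 1.78.

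Within a time point 0 of the 8 members were called at baseline, week 1, week 4 or week 8 by edgeR, DESeq2 or limma-voom. Of all miRNAs 0% were called at the first 3 time points and 0.155% at week 8, which is 1 miRNA and no member. The only member with an unadjusted p under 0.05 in edgeR was miR-17-5p at week 8, and DESeq2 gave 2 members such a p at that week. Of all 645 miRNAs, 35 had such a p in edgeR at week 8. miR-17-5p had 570.0, 787 and 1239 RPM in strong and 435, 525 and 871 RPM in weak regenerators at week 8, with overlapping ranges. Its log2 difference was 0.40 (SE 0.20, edgeR unadjusted p = 0.0497, FDR 0.747). miR-20a-5p had 318, 588 and 791 RPM in strong and 272, 396 and 574 RPM in weak regenerators (0.42, SE 0.21, FDR 0.747). At week 8 the platelet miRNAs summed to a median of 8.89% (8.62 to 10.2) in strong and 7.66% (6.30 to 8.99) in weak regenerators, and the red blood cell miRNAs to 31.2% (27.1 to 37.0) and 34.9% (30.5 to 38.0). The linear haemolysis ratio had medians of 6.59 and 8.87. The part of these in the values was not tested.

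The difference of the changes was tested as an interaction. 0 of 8 members were called at week 1, week 4 or week 8 by edgeR, DESeq2 or limma-voom, with 0 at an unadjusted p under 0.05 in edgeR, and 0% of all miRNAs were called at each week. The smallest unadjusted edgeR p among members was 0.148, for miR-17-5p at week 8 (log2 difference 0.42, 95% confidence interval -0.15 to 0.99, FDR 1.00). For miR-19b-3p at week 8 the difference was -0.08 (95% confidence interval -0.53 to 0.37).

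**Figure D4:**
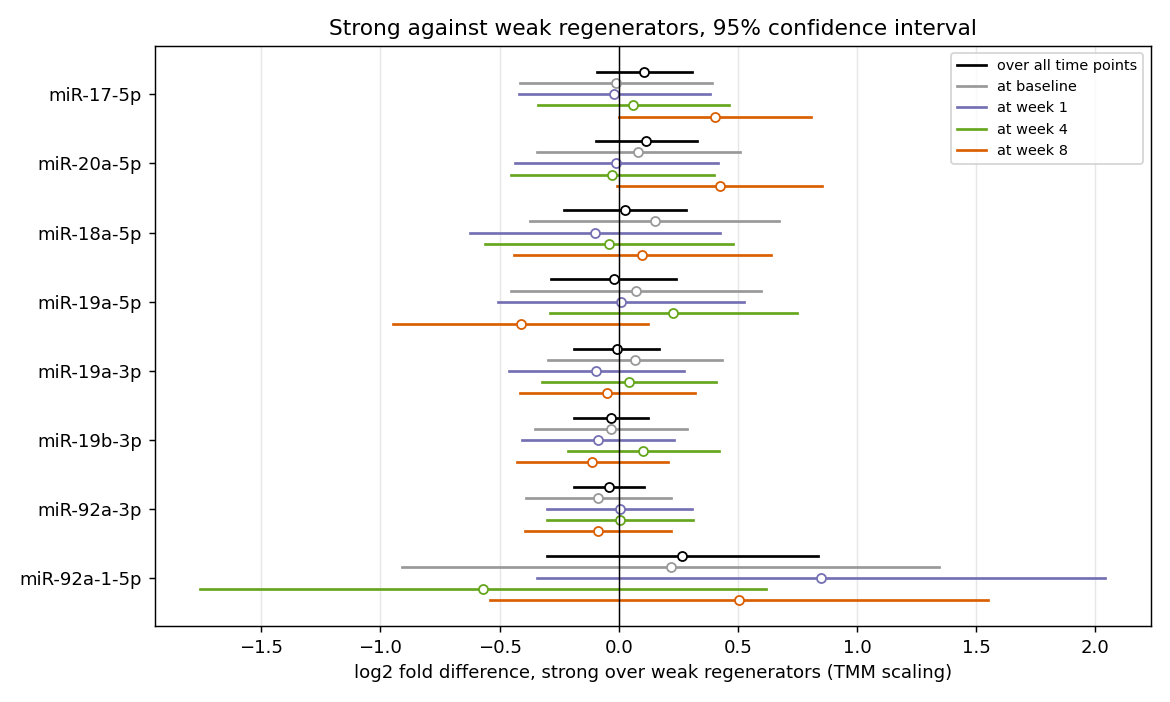
Log2 difference of strong over weak regenerators for each member (horizontal axis, TMM scaling) over all time points and at each time point, with 95% confidence intervals. Open points mark an FDR of at least 0.05, which holds for all 40 values.

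Members also differed in how they varied between the samples of a time point. With each log2(RPM + 1) centred on the mean of its time point, Pearson's r over the 48 samples was highest for miR-17-5p and miR-20a-5p (0.84), and lay at 0.55 for miR-19a-3p and miR-19b-3p. miR-92a-3p had r = -0.37 with miR-18a-5p and -0.33 with miR-20a-5p. These values share libraries and depth, and 4 samples come from each rat, so they are a description only.

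Among 302 other miRNAs with a mean of at least 10 RPM, the one most alike to miR-20a-5p was miR-16-5p (r = 0.67), followed by miR-191a-5p (0.65) and let-7i-5p (0.64). For miR-17-5p these were miR-191a-5p (0.59), miR-16-5p (0.54) and miR-128-3p (0.51), and for miR-18a-5p miR-144-3p (0.56), miR-16-5p (0.56) and let-7i-5p (0.50). miR-19b-3p varied most like miR-15a-5p (0.79), miR-301a-3p (0.76) and miR-423-3p (0.75), and miR-19a-3p like miR-15b-3p (0.57), miR-16-5p (0.52) and miR-340-5p (0.52). For miR-92a-3p the nearest was miR-25-3p (0.56), which has the same seed, then miR-150-3p (0.53) and miR-107-3p (0.52). The centred r with the log2 of the haemolysis ratio was between -0.17 for miR-92a-3p and 0.56 for miR-18a-5p and miR-19a-3p.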

How the data were processed

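Plasma small RNA of 12 rats at 4 time points was counted. Libraries were made by single-adapter ligation (RealSeq), without molecular identifiers. Per the paper's methods the authors trimmed with cutadapt 3.3, kept reads of at least 17 bases, mapped them with bowtie 1.3.0 and miRDeep2 to Rnor_6.0 with up to 2 mismatches and to rat miRBase entries with 1 mismatch. The submitters' processing notes list a human build instead, so the build is uncertain and no coordinates of theirs were used. The deposited counts are whole numbers for 645 miRNAs and 3 spike-ins, without normalization. Values in the text are RPM, computed here over the miRNA total. Depth limits the sparse members, and intervals cover counting error and spread between these samples only.

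Tests used R 4.3.3, edgeR 4.0.16 (quasi-likelihood, version 3 method, TMM) with a DESeq2-like filter on mean abundance, fitted on all miRNAs: regeneration and time as terms for changes and for strong against weak over all time points, 8 group means for the rest. Changes are log2 fold changes, two-sided. DESeq2 1.42.0 and limma 3.58.1 were alternatives, together with other scalings, filters, a replicate block and leaving out each rat. Same-numbered samples come from the same rat. Their deviations from group means correlated at a mean of 0.107 against -0.0079 for different rats, over 0.1 in 6 of 12 rats. No sample was a copy of another: over 1128 pairs, chi-square divided by its degrees of freedom ranged from 16.4 to 594. Python 3.11.15 (pandas 2.3.3, numpy 2.4.6, matplotlib 3.10.9) computed ratios, tables and plots. The fits were tested on simulated data in which all samples were drawn independently. That simulation held no effect of the rat, so it does not cover the 4 samples per rat. Of the 645 miRNAs, 583 matched a RefSeq mature sequence of GRCr8.

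All 8 members, their 7 partner arms, 12 paralogues, miRNAs with a shared seed, 15 blood cell markers and, for members that average at least 100 RPM, the 3 most alike miRNAs are described, the arms and paralogues not named being in the counts only. Members and lists were chosen with earlier results of these data known.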

Additional observations from a re-analysis of the deposited data

Results flagged for a closer look

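In 7 of 64 groups of 6 rats (8 members, 4 time points, strong and weak regenerators), 1 rat stood far from the other 5 by Dixon's test, which chance does in about 1 of 20 groups. miR-19a-5p at week 1 was 101 RPM in strong regenerator rat 5 against 59.1 to 62.0 in the others, and 99.6 RPM in weak regenerator rat 7 against 48.5 to 67.3. These are counts of 81 and 42 reads, and the call of miR-19a-5p at week 1 was lost without rat 7 (edgeR FDR 0.103). miR-19b-3p was 36619 RPM in weak rat 16 at baseline against 28918 to 30289 in the others, and 59291 RPM in strong rat 17 at week 8 against 51498 to 52692. miR-20a-5p was 717 RPM in weak rat 25 at baseline against 804 to 853, and 544 RPM in strong rat 21 at week 1 against 895 to 996. miR-92a-3p was 44294 RPM in strong rat 29 at baseline against 33516 to 36494.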

How the results depend on the processing

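At week 1, where 3 members were called, the count was 0 with library size scaling, with UniSp2 scaling, with no filter and with a 2-fold limit, 1 with filterByExpr, and 0 to 3 with each rat left out. At week 8, where 5 were called, it was 1 with a 2-fold limit, 7 with UniSp2 scaling, 6 with the replicate block of the rat, with DESeq2 or with library size scaling, and 5 to 6 with each rat left out. The replicate block changed no other call of a member. At week 4 and between strong and weak regenerators the count was 0 under every alternative run. The number of ratios with an adjusted p under 0.05 was 5 to 6 with each rat left out, against 6.

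UniSp2 scaling moved the median of all miRNAs to -0.35 at week 1, -0.33 at week 4 and -1.82 at week 8 (log2), and library size scaling to -0.14 at week 1. On the UniSp2 scale these members changed sign. At week 1, miR-18a-5p was at -0.0027, miR-19a-3p at -0.032, miR-20a-5p at -0.10 and miR-92a-3p at -0.0065. At week 4, miR-17-5p was at -0.12, miR-18a-5p at -0.077, miR-19a-3p at -0.083, miR-19a-5p at -0.057, miR-19b-3p at -0.088, miR-20a-5p at -0.10 and miR-92a-3p at -0.15. At week 8, miR-19a-3p was at -1.56, miR-19a-5p at -1.62, miR-19b-3p at -1.05, miR-92a-3p at -1.52 and miR-92a-1-5p at -0.51. The cause was not tested. miR-92a-1-5p at week 1, with few reads and no call, was at 0.067 in limma-voom and between -0.27 and 0.036 with each rat left out. Of the ratios at week 8, miR-19a-5p to miR-19a-3p ranged from -0.14 to 0.021 and miR-92a-3p to miR-19a-3p from -0.032 to 0.10 (log2).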
